A study of Homo sapiens with 12 samples.

Results

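The 10 genes described here encode the enzymes that build purine and pyrimidine nucleotides from small precursors, together with the enzyme that makes the activated ribose for both routes. They are PRPS1, PPAT, GART, PFAS, PAICS, ATIC, IMPDH2, CAD, DHODH and UMPS. They were chosen by name, and all 10 were found in the deposited table of 11548 genes. RNA sequencing was done in 3 human hepatocellular carcinoma (HCC) cell lines, Hep3B, MHCC97H and Huh7, all labelled wild type. Each line was left untreated or was treated with 100 nM AZD8055, an inhibitor of the mTOR kinase, with compound #57, an allosteric inhibitor of the phosphatase SHP2, or with the combination of both. Compound #57 was at 5 µM in the combination in Hep3B and Huh7, and no separate dose is given in the sources used here for MHCC97H or for compound #57 alone. Hep3B and Huh7 cells were exposed for 48 h and MHCC97H cells for 24 h, so that the effect of time cannot be separated from that of the line. There was 1 library per cell line and treatment, 12 in all, with between 10667343 and 15968317 reads. No treatment was repeated within a cell line, and the cell lines are the only replicates of a treatment. Of the 13 hepatocyte and HCC markers looked up, Hep3B and Huh7 expressed all. In untreated MHCC97H, several of these markers were at or near 0, with 5 reads for APOA1, 0 for TTR, 3 for GPC3 and 22 for SERPINA1. Others were detected, with 395 reads for ALB, 312 for APOB, 249 for FGB and 775 for HNF4A. The keratins KRT8 and KRT18 were abundant.

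De novo synthesis starts from phosphoribosyl pyrophosphate (PRPP), which PRPS1 makes from ribose 5-phosphate. PPAT commits PRPP to the purine route, GART, PFAS, PAICS and ATIC carry the growing ring to inosine monophosphate (IMP), and IMPDH2 turns IMP towards guanine nucleotides. For pyrimidines, CAD performs the first steps of the ring, DHODH oxidises dihydroorotate at the inner mitochondrial membrane, and UMPS joins orotate to PRPP to give uridine monophosphate. Dividing cells depend on these routes for RNA and DNA, and mTOR complex 1 is known to promote both, in part through phosphorylation of CAD.

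PPAT and PAICS, which catalyse different steps of the purine route, lie head to head on chromosome 4. PPAT runs from 56393362 to 56435615 on the minus strand and PAICS from 56435741 to 56464578 on the plus strand in GENCODE release 44 (hg38). Their outermost starts are 125 bases apart. This stretch is shown because both genes are transcribed away from it and were among the members that fell most. It holds 3 GC boxes (GGGCGG on the strand shown and CCGCCC on the other), which are in capitals. The sequence is from RefSeq, build GRCh38.p14, chr4:56435616-56435740, plus strand:
PPAT-PAICS: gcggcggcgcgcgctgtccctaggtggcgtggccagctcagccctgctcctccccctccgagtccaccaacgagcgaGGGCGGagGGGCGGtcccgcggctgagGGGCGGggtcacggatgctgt

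RefSeq promoter windows, from 250 bases before to 50 bases after a start, were given for 9 of the 10 members and not for IMPDH2. The palindrome CACGTG, an E-box, was present in the windows of 4 of these 9, PPAT, PAICS, ATIC and DHODH, and PPAT and PAICS share the same copy. Of the 8714 genes of the table with a window, 13.0% held it. The GC box, searched on both strands, was in the windows of 8 of the 9 members, all but UMPS, and in those of 78.4% of the genes. Genes with several starts have several windows, PAICS among them. A match to these letters is a description and shows no bound factor. The E-box is in capitals in the following stretches of 30 bases, which are chr4:56435780-56435809 on the minus strand for PPAT, chr2:215312001-215312030 on the plus strand for ATIC and chr16:72008573-72008602 on the plus strand for DHODH. In PPAT it lies 182 bases before the RefSeq start, in ATIC 46 and in DHODH 159, and ATIC holds another copy at position 30 after its start. The copy that PPAT shares with PAICS is at position 41 after the RefSeq start of PAICS nearest to PPAT. It lies within PAICS and outside the stretch between both genes. From the outermost GENCODE starts the ATIC copy shown lies within the gene, and the start of DHODH falls inside its copy.
PPAT: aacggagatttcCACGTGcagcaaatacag
ATIC: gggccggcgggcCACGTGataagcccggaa
DHODH: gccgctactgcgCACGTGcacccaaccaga

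Levels are given as normalised reads, which are reads scaled to a library of 10000000 reads, and, to compare members, as normalised reads per kb of the canonical GENCODE transcript. In untreated cells, DHODH had the lowest level of the 10 in every line, with 30.9 normalised reads per kb in Hep3B, 29.6 in MHCC97H and 38.0 in Huh7. UMPS was the next lowest in every line, between 113 and 118. ATIC, IMPDH2 and PAICS held the highest 3 levels in Hep3B and Huh7. In MHCC97H, PRPS1 stood at 687, above PAICS at 549 and below ATIC at 1018 and IMPDH2 at 809. The order at the top changed where the length of all annotated exons was used in place of the canonical transcript, and PAICS was then first in Hep3B and Huh7. UMPS differed least between the untreated lines, from 748 to 785 normalised reads, while PAICS ranged from 3499 to 8597. With 1 culture per line, no difference in level between the lines was tested.

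**Figure D1:**
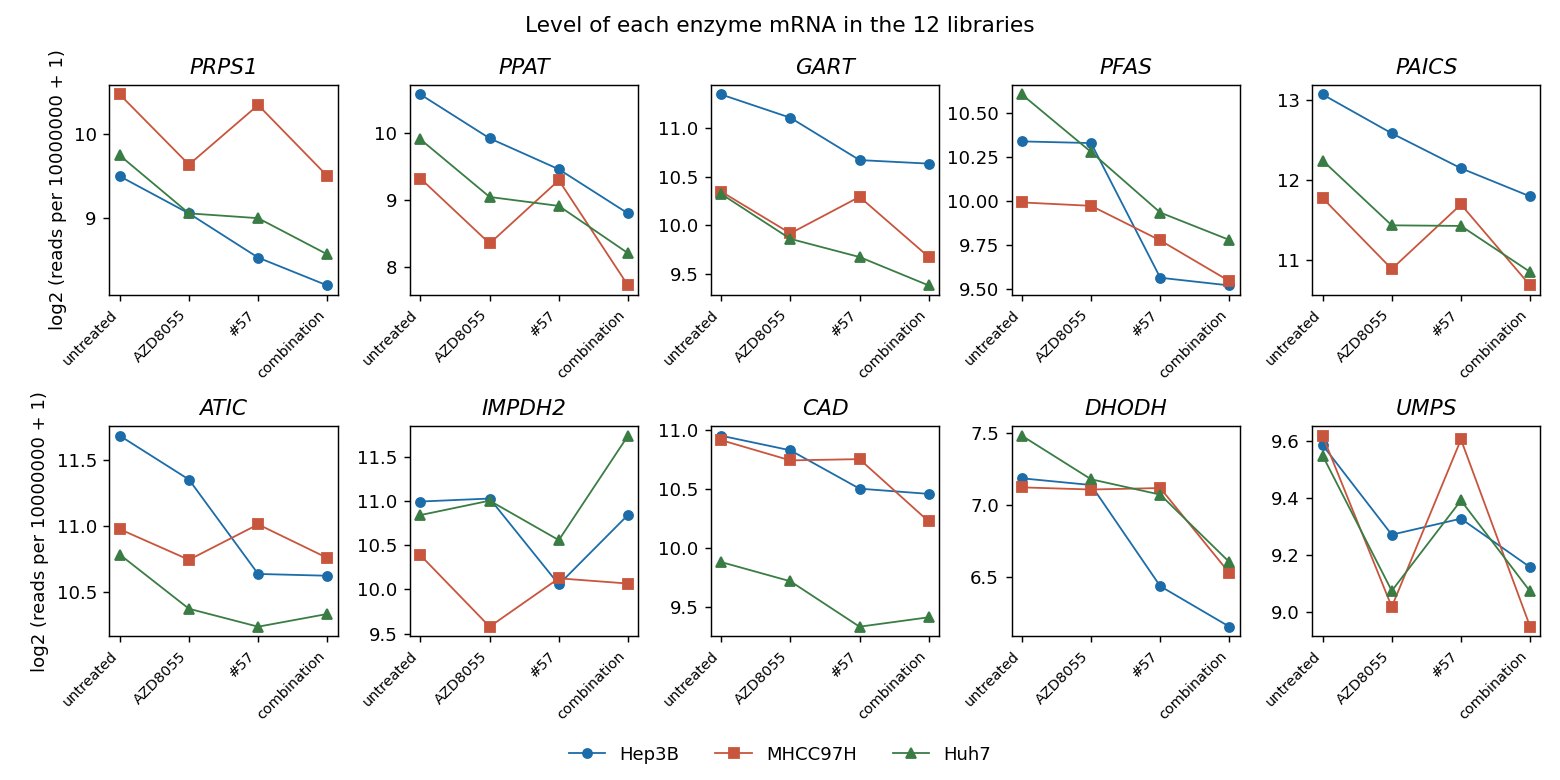
Level of each enzyme mRNA (y axis, log2 of reads per 10000000 plus 1, with a scale of its own in each panel) in untreated cells and with AZD8055, compound #57 and the combination. Each point is 1 library, and lines only join the libraries of a cell line. PPAT was lowest with the combination in every line, while IMPDH2 was highest with the combination in Huh7.

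Combined inhibition of mTOR and SHP2 lowered the mRNA of nearly the whole set. Relative to untreated cells, 9 of the 10 members fell in the limma fit over the 3 cell lines (adjusted p under 0.05), where 15.1% of all 11548 genes were called lower. IMPDH2 was the exception. The falls ran from 3.22-fold for PPAT to 1.44-fold for UMPS. Within a line, at least 1.5-fold lower were 7 of 10 members in Hep3B, where 15.7% of all genes were, 7 of 10 in MHCC97H (13.7% of genes) and 6 of 10 in Huh7 (16.7% of genes). The median over the members was a log2-fold change of -0.73, against 0.086 over all genes. The calls depended on which cell line was left out. Without MHCC97H 9 members were called, where 1711 of the 11548 genes were called lower. Without Huh7, 0 of the 10 were called, with estimates for the same 9 between -0.55 and -1.68. No gene of the table was then called lower. Without Hep3B 6 members remained called, with ATIC (adjusted p = 0.205), CAD (0.066) and DHODH (0.055) lost, where 6.64% of all genes were called lower.

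PRPS1, which supplies PRPP, fell 2.22-fold with the combination (log2-fold change -1.15 ± 0.19 SE, limma adjusted p = 0.00379, lower in 3 of 3 lines). In Hep3B it had 724 normalised reads in untreated cells, 532 with AZD8055, 369 with compound #57 and 293 with the combination. In MHCC97H the values were 1423, 797, 1304 and 725, and in Huh7 860, 532, 512 and 379, in the same order. The untreated library was the highest and the combination library the lowest in each line, and compound #57 alone left MHCC97H near its untreated level.

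PPAT, the enzyme of the committed purine step, had the largest fall of the 10. It went from 1526 normalised reads in untreated Hep3B to 969 with AZD8055, 704 with compound #57 and 445 with the combination. In MHCC97H it had 640, 326, 628 and 211, and in Huh7 959, 528, 481 and 295. The 3 combination libraries lay below all 3 untreated libraries, and the share of all genes that did so was not counted. With the combination, 29.2% of the untreated level remained in Hep3B, 33.1% in MHCC97H and 30.8% in Huh7. The limma log2-fold change was -1.69 ± 0.23 (SE, adjusted p = 0.00237).

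PAICS, whose start lies next to that of PPAT and whose product carries out consecutive steps towards IMP, fell 2.39-fold (log2-fold change -1.25 ± 0.20 SE, limma adjusted p = 0.00314). Its levels were 8597, 6137, 4533 and 3551 normalised reads in Hep3B, 3499, 1892, 3311 and 1640 in MHCC97H, and 4848, 2763, 2748 and 1844 in Huh7, in the order of untreated, AZD8055, compound #57 and combination. Each line had its highest value untreated and its lowest with the combination. Across the 12 libraries, with the mean of each line subtracted, the log2 values of PPAT and PAICS had a Pearson r of 0.989. This was not particular to the neighbouring pair. PRPS1, on chromosome X, had 0.982 with PPAT and 0.994 with PAICS, and GART had 0.969 and 0.977. The remaining members had lower values with both. These libraries share cell lines and controls, and the values are descriptions.

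GART, a multifunctional enzyme of the early and middle steps, fell 1.71-fold with the combination (log2-fold change -0.77 ± 0.15 SE, limma adjusted p = 0.00581). It had 2593 normalised reads in untreated Hep3B, 1301 in MHCC97H and 1279 in Huh7, against 1586, 817 and 667 with the combination. PFAS, which uses glutamine to aminate the ring precursor, fell 1.62-fold (-0.69 ± 0.13 SE, adjusted p = 0.00581). Its untreated levels of 1292, 1017 and 1553 in Hep3B, MHCC97H and Huh7 became 734, 746 and 877 with the combination. The 3 treated libraries lay below the 3 untreated, a separation that was not counted over all genes. ATIC, which closes the ring to IMP, fell 1.49-fold (-0.58 ± 0.20 SE, adjusted p = 0.0466), the highest adjusted p of the 9. Its fall was unequal between the lines, from 3281 to 1571 in Hep3B, from 2007 to 1725 in MHCC97H and from 1756 to 1285 in Huh7.

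Among the pyrimidine enzymes, DHODH fell 1.78-fold with the combination (log2-fold change -0.83 ± 0.18 SE, limma adjusted p = 0.00852). It rested on the fewest reads of the set, with 154 reads in untreated Hep3B against 87 with the combination, 180 against 113 in MHCC97H and 283 against 112 in Huh7. CAD fell 1.46-fold (-0.55 ± 0.12 SE, adjusted p = 0.00978), from 1975 to 1403 normalised reads in Hep3B, from 1925 to 1193 in MHCC97H and from 940 to 679 in Huh7. UMPS fell 1.44-fold (-0.53 ± 0.12 SE, adjusted p = 0.0109), from 768 to 570, from 785 to 493 and from 748 to 538. For DHODH and UMPS, all combination libraries were below all untreated libraries, while for CAD the lines overlapped because untreated Huh7 started low. How many of all genes were separated in this way was not counted.

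IMPDH2, the main isoenzyme of the guanine branch in many dividing cells, departed from the other members. In Huh7 it had 1831 normalised reads untreated, 2050 with AZD8055, 1505 with compound #57 and 3410 with the combination, where it reached 186% of the untreated level. In Hep3B the values were 2036, 2084, 1063 and 1833, and in MHCC97H 1336, 763, 1115 and 1070. The combination left IMPDH2 above the untreated level in Huh7 and below it in the other lines, and the limma log2-fold change was 0.14 ± 0.28 (SE, 95% interval -0.48 to 0.77, adjusted p = 0.711). Without Huh7 the estimate was -0.24. Its isoenzyme IMPDH1 did fall with the combination (-1.21 ± 0.17 SE, adjusted p = 0.00264), at -0.75 in Hep3B, -1.30 in MHCC97H and -1.57 in Huh7. IMPDH2 overlaps another annotated protein-coding gene model on its own strand and a non-coding RNA on the other, and reads of these cannot be told apart here.

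**Figure D2:**
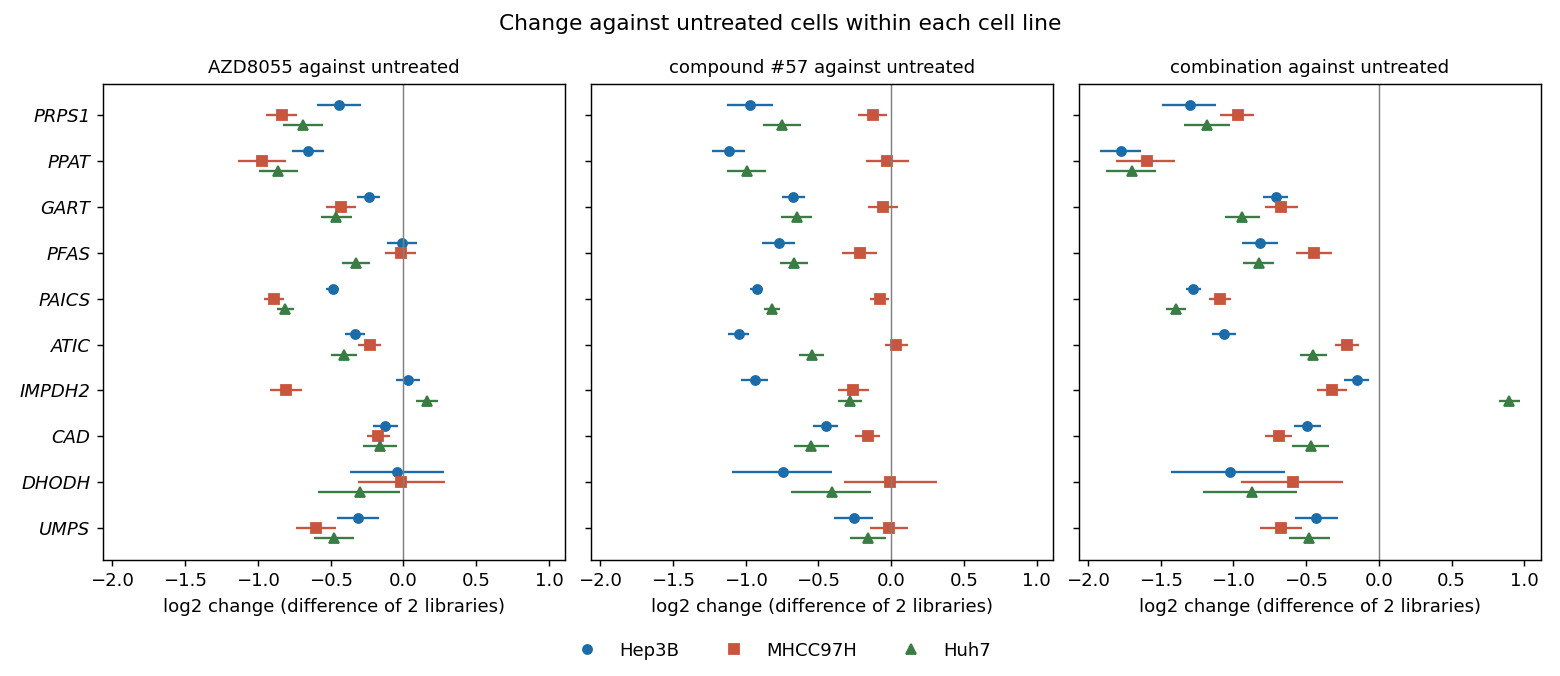
Log2-fold change against untreated cells within each cell line (x axis) for AZD8055, compound #57 and the combination. Points are differences between a pair of libraries and bars are 95% Clopper-Pearson intervals, which cover counting error only. With the combination 29 of 30 points lie below 0, the exception being IMPDH2 in Huh7, and with compound #57 the MHCC97H points lie near 0.

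With AZD8055 alone, the limma estimate was below 0 for each of the 10 members but none passed the limma test, where 0.753% of all genes were called lower. The median estimate of the members was -0.35, against 0.031 over all genes. Without adjustment, 5 of the 10 members and 3165 genes had p under 0.05, counted in either direction. Limma voom also called 0 members, while it called 122 genes lower and 312 higher. PPAT had the largest estimate (-0.83 ± 0.23 SE, adjusted p = 0.0659), followed by PAICS (-0.73 ± 0.20 SE, adjusted p = 0.0636), PRPS1 (-0.66 ± 0.19 SE, adjusted p = 0.0759) and UMPS (-0.46 ± 0.12 SE, adjusted p = 0.0618). Within a line no test is possible, so a change of at least 1.5-fold was counted. PPAT alone was that much lower in Hep3B, where 4.32% of all genes were. In MHCC97H 5 of 10 were, against 10.5% of genes, and in Huh7 3 of 10, against 10.1%. PPAT passed this fold in each line, and PAICS and PRPS1 in MHCC97H and Huh7. DHODH in MHCC97H, with a log2-fold change of -0.015 and an interval from -0.31 to 0.29, and PFAS in Hep3B, at -0.0095, were close to no change.

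With compound #57 alone, the lines parted. The median log2-fold change of the members was -0.85 in Hep3B and -0.60 in Huh7 but -0.067 in MHCC97H. At least 1.5-fold lower were 8 of 10 members in Hep3B, where 12.6% of all genes were, 5 of 10 in Huh7 (5.57% of genes) and 0 of 10 in MHCC97H (2.76% of genes). PPAT was at -1.12 in Hep3B (95% interval -1.23 to -1.01) and -0.99 in Huh7 (-1.13 to -0.86), but at -0.026 in MHCC97H (-0.17 to 0.12). UMPS had the smallest change in Hep3B and Huh7, at -0.26 and -0.16. Over the 3 lines limma called 0 members, and it called 0% of all genes lower, with 7 members and 2501 genes at an unadjusted p under 0.05. Limma voom called 0 members and 19 genes lower. In the fit without MHCC97H, 5 members were called lower, PRPS1, PPAT, GART, PFAS and PAICS, where 2.69% of all genes were. Because MHCC97H was also the line collected at 24 h, the line and its exposure time cannot be told apart, and the difference between the lines was not tested.

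Set against the single drugs, the combination had lower estimates than either for most members. Against AZD8055 alone, the log2 estimate was lower for 9 of 10 members, with PPAT at -0.86 ± 0.23 (SE, limma adjusted p = 0.201). The median estimate of the members was -0.45, against 0.040 over all genes. Limma called 0 members and 0% of all genes lower in this comparison, with 7 members and 1673 genes at an unadjusted p under 0.05, and limma voom called 0 genes. At least 1.5-fold lower were 6 of 10 members in Hep3B (10.5% of genes), 1 of 10 in MHCC97H (4.63%) and 1 of 10 in Huh7 (7.2%). In Huh7 this was PPAT, and IMPDH2 was higher there by 0.73. Against compound #57 alone, PPAT was called lower (-0.98 ± 0.23 SE, limma adjusted p = 0.045), where 1.57% of all genes were. With any 1 cell line left out it was not called. Of all genes, 0 were then called lower without Hep3B, 0 without Huh7 and 153 without MHCC97H. The fall of PPAT against compound #57 was largest in MHCC97H, at -1.57 (95% interval -1.78 to -1.37), and was -0.66 in Hep3B and -0.70 in Huh7. PAICS had -1.01 in MHCC97H, -0.35 in Hep3B and -0.58 in Huh7. In MHCC97H the difference from AZD8055 alone was -0.14 for PRPS1 and 0.014 for ATIC, against -0.63 for PPAT and 0.49 for IMPDH2. In Hep3B the difference from compound #57 alone was -0.014 for ATIC and -0.036 for GART, against -0.33 for PRPS1 and 0.79 for IMPDH2. These comparisons share libraries with those against untreated cells.

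The combination was also compared with the sum of the log2-fold changes of both single drugs. Limma called 0 members and 0% of all genes, with 0 members and 178 genes at an unadjusted p under 0.05, and limma voom called 0 members. For 9 members the difference was between -0.32 for DHODH and 0.27 for ATIC, with 95% intervals that included 0, for example -0.86 to 0.56 for PPAT. IMPDH2 was higher than the sum by 0.75 in Hep3B, 0.75 in MHCC97H and 1.02 in Huh7. The limma estimate was 0.84 ± 0.40 (SE, 95% interval -0.044 to 1.72, adjusted p = 0.9999), and its interval also included 0. In MHCC97H PPAT differed from the sum by -0.60 and DHODH by -0.57, while in Hep3B PPAT matched the sum with a difference of -0.0048. These differences carry no interval, and DHODH had 113 to 195 reads in the MHCC97H libraries. At least 1.5-fold below the sum in MHCC97H were 1 of 10 members, PPAT, and 7.03% of all genes.

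**Figure D3:**
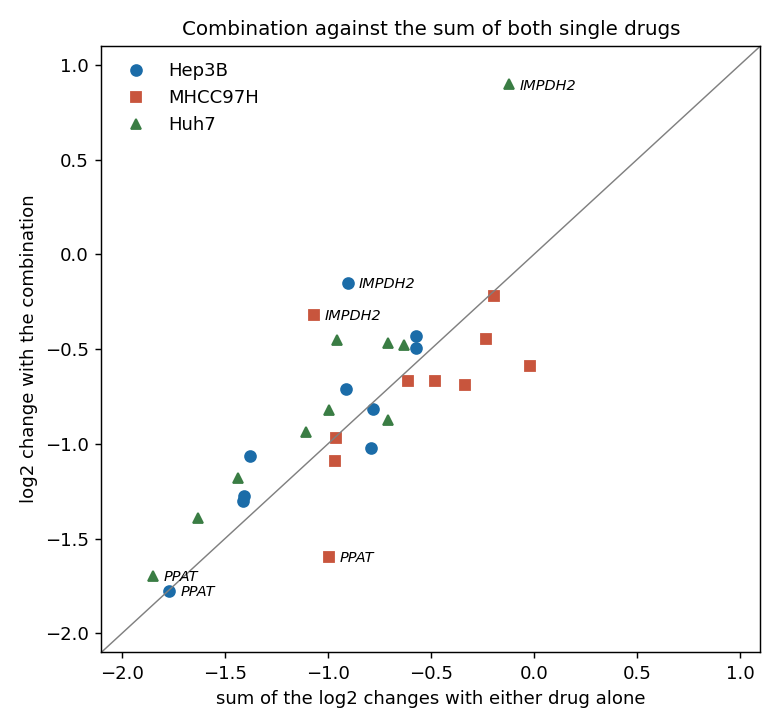
Log2-fold change with the combination (y axis) against the sum of the log2-fold changes with AZD8055 alone and compound #57 alone (x axis), both against untreated cells. Each point is 1 member in 1 cell line, without replicates, and the grey line marks equality. The 3 IMPDH2 points lie above the line by 0.75 to 1.02.

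Summed over the 10 members, the normalised reads in Hep3B went from 22936 untreated to 80.1% of this with AZD8055, 55.9% with compound #57 and 52.6% with the combination. In MHCC97H the sum went from 14070 to 69.8%, 93.7% and 61.9%, and in Huh7 from 14951 to 72.8%, 64.8% and 67.4%. In Huh7 the combination was therefore not below compound #57 in the sum, where IMPDH2 stood at 186% of its untreated level. No test was made of these sums.

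Genes around the 10 enzymes were taken from lists of general knowledge. Their counts stand beside the 15.1% of all genes called lower and the 20.9% called higher with the combination in the same fit. Of 12 other genes of de novo synthesis in the table, the combination lowered 7 and raised 1 in the limma test, PRPSAP1, an associated protein of PRPP synthetase (log2-fold change 0.45, adjusted p = 0.0188). NME1, a nucleoside diphosphate kinase, fell with a log2-fold change of -1.91 (adjusted p = 0.00182), CTPS1, which makes CTP from UTP, with -1.54 (adjusted p = 0.00581), GMPS, which follows IMPDH in the guanine branch, with -0.82 (adjusted p = 0.00361) and ADSL, which acts both before and after IMP, with -0.51 (adjusted p = 0.0464). PRPS2 was at -0.60 (adjusted p = 0.0544) and CTPS2 at 0.34 (adjusted p = 0.138), and neither was called. The 1 gene that rose was a smaller share than that of all genes. With AZD8055 alone IMPDH1 was the single gene of this list called (-0.86, adjusted p = 0.0390).

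Of 13 genes that supply serine and folate-bound one-carbon units, which GART and ATIC consume, 7 fell with the combination, against 15.1% of all genes, and 0 rose. PSAT1, of serine synthesis, fell with a log2-fold change of -2.49 (adjusted p = 0.00211), the mitochondrial SHMT2 with -1.16 (adjusted p = 0.00301) and MTHFD1 with -0.78 (adjusted p = 0.00423). PSAT1 and SHMT2 were also called lower with AZD8055 alone, at -1.64 (adjusted p = 0.0382) and -0.99 (adjusted p = 0.0337). Of 6 genes of the pentose phosphate route to ribose, 2 fell, RPE (-0.59, adjusted p = 0.0113) and TALDO1 (-0.38, adjusted p = 0.0388), and PGLS rose (0.98, adjusted p = 0.00384). The 1 of 6 that rose is near the 20.9% of all genes.

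Of 14 salvage genes, which recover bases and nucleosides, 7 fell and 2 rose, the latter a smaller share than the 20.9% of all genes. PNP fell with a log2-fold change of -1.34 (adjusted p = 0.00263), HPRT1 with -0.93 (adjusted p = 0.0169) and UCK2 with -0.80 (adjusted p = 0.0116), and mitochondrial TK2 rose by 0.85 (adjusted p = 0.0111). Of 10 genes of deoxynucleotide synthesis, 4 fell, against 15.1% of all genes, and 1 rose, against 20.9%. RRM2, the S-phase subunit of ribonucleotide reductase, fell with -1.60 (adjusted p = 0.0112), and RRM2B, its alternative subunit, rose by 0.42 (adjusted p = 0.0447). Of 12 genes of nucleotide breakdown, 1 fell and 2 rose, both smaller shares than those of all genes. The 1 that fell was NT5E, the surface 5'-nucleotidase, with -2.82 (adjusted p = 0.00810), and AMPD3, an AMP deaminase, rose by 1.17 (adjusted p = 0.0155). The median of the breakdown list was -0.085, against -0.73 for the 10 enzymes and -0.78 for the folate and serine list.

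**Figure D4:**
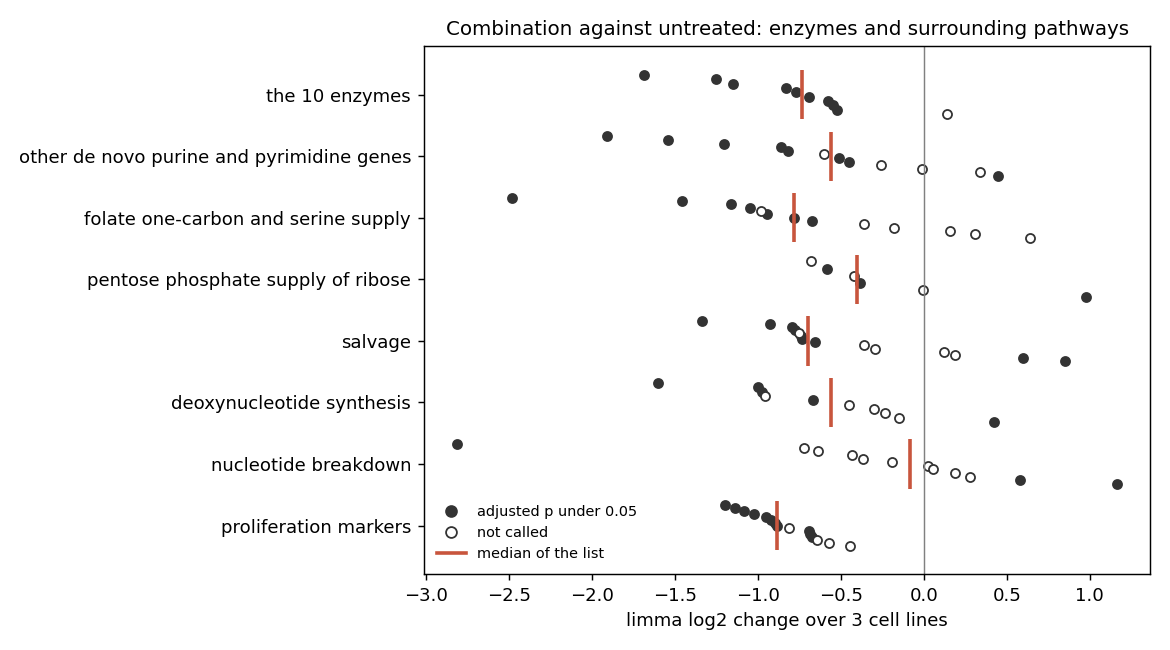
Limma log2-fold change of the combination against untreated cells over 3 cell lines (x axis) for the 10 enzymes and for the genes of 7 surrounding lists. Filled points have an adjusted p under 0.05, open points were not called, and red bars are list medians, which run from -0.89 for proliferation markers to -0.085 for nucleotide breakdown.

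Proliferation markers were also lowered by the combination. All 15 were in the table, and 11 fell with the combination, against 15.1% of all genes, and 0 rose, with a median of -0.89. Their summed normalised reads were 50131 untreated, 43868 with AZD8055, 35874 with compound #57 and 32677 with the combination in Hep3B. In MHCC97H the sums were 43517, 22611, 42064 and 23723, and in Huh7 49935, 41022, 41536 and 26531. As for PPAT and PAICS, compound #57 left MHCC97H near its untreated value. The markers did not follow the enzymes throughout. With the combination against AZD8055 alone, the marker median was 0.10 in MHCC97H, against -0.22 for the enzymes. In Hep3B these medians were -0.42 and -0.76, and in Huh7 -0.64 and -0.48. The part of proliferation in the falls of the enzymes was not tested. In bulk RNA, fewer cells that express a gene and less RNA per cell cannot be told apart.

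Across the 12 libraries, the members were also compared by their log2 values with the mean of each line subtracted. The Pearson r with the mean of the other 9 members was 0.980 for PRPS1, 0.975 for GART, 0.960 for PAICS and 0.949 for PPAT. It was 0.886 for CAD and DHODH, 0.878 for ATIC, 0.854 for PFAS and 0.764 for UMPS, and 0.107 for IMPDH2. Of the other genes of the table, those most like the mean of the 10 members were NOP16 (r = 0.997), U2SURP (0.992), NOP58 (0.992), TSR1 (0.991) and NCL (0.990). The libraries share cell lines and controls, and these values are descriptions over 12 libraries.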

How the data were processed

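Polyadenylated RNA of 3 HCC cell lines was sequenced in 12 libraries. Per the labels the library preparation was stranded and the reads were aligned to hg38. The deposited table holds the log2 values that the authors made for each gene in each library. The aligner, the read counting and its strand setting are not given in the sources used here, so reads of overlapping genes cannot be assigned for PPAT, GART, PFAS, IMPDH2 and UMPS, and GENCODE names 7 pseudogenes after PAICS, 2 after PPAT and 2 after PRPS1. Every value was, within 0.01 of a read, the log2 of whole reads scaled to 10000000 per library plus 1, with 0.001 added, and reads were recovered on that scale. Because of the added 1, fold changes of genes with low reads come out somewhat too small.

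Groups were taken from the labels. Differences within a line carry 95% Clopper-Pearson intervals, which cover counting error only, because no replicates exist. Across lines, limma 3.58.1 in R 4.3.3 (lmFit, eBayes with trend) was fitted to all 11548 genes with treatment and cell line as terms and 6 residual degrees of freedom. Cell lines form the block, and the pairing comes from the line itself. p-values were Benjamini-Hochberg adjusted over all genes and called under 0.05. They rest on how far the 3 lines disagree in their changes, pooled over all 4 treatments, and not on differences in level between lines. Each gene therefore has the same SE in every comparison of a pair of treatments. A disagreement between lines under 1 treatment enters all of these. The limma fit was tried on simulated counts in which a changed gene changed equally in every line. For AZD8055 against untreated, 47% of genes with a log2 change of 0.5 and 93% of those with 1 were recovered. Because the simulated lines did not disagree in their changes, this does not show the recovery in the real data. The members, the lists and the likeness rule (highest Pearson r) were chosen with earlier results of these data known, and all 10 members are named. 1 gene of the lists is not reported here. In the other lists, examples were taken among the called genes and their paralogs after their values were seen. Alternatives were another added constant, the 75% of genes with the highest mean, centred libraries, no line term, each line left out, only the libraries compared, and voom on whole reads. Other steps ran in Python 3.11.15 (scipy 1.17.1, pandas 2.3.3), and figures were drawn with matplotlib 3.10.9.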

Additional observations from a re-analysis of the deposited data

Results flagged for a closer look

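IMPDH2 changed in opposite directions in different cell lines, beyond the counting error of each. The share of all genes that did so was not counted. With the combination its log2-fold change against untreated cells was 0.90 in Huh7 (95% interval 0.83 to 0.97), -0.15 in Hep3B (-0.24 to -0.066) and -0.32 in MHCC97H (-0.42 to -0.22). With AZD8055 alone it was 0.16 in Huh7 (0.085 to 0.24) and -0.81 in MHCC97H (-0.92 to -0.70). The difference between the lines was not tested, since each line has 1 library per treatment.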

How the results depend on the processing

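The count of members called lower with the combination was 9 with another added constant, centred libraries or voom, 8 in the 75% of genes with the highest mean, from which DHODH was absent, and 6 with the libraries compared alone. Among all genes, 1759 were called lower with the other constant, 2229 with centred libraries and 1763 with voom. In the 75% set 1607 of 8661 genes were, and with the libraries compared alone 868. The member count was 0 without the cell line term (no replicate block), where 0 of the 11548 genes were called lower. It was 0 to 9 with 1 line left out, the 0 being without Huh7, where 0 genes were called lower. For AZD8055 it was 1 with centred libraries, UMPS (limma adjusted p = 0.0491), where 217 genes were called lower. For compound #57 it was 0 to 5 with 1 line left out, the 5 being without MHCC97H, where 311 genes were called lower. For the combination against compound #57 it was 0 with no replicate block, 0 with the libraries compared alone and 0 with any line left out. Of all genes, 0 were called lower with no replicate block, without Hep3B or without Huh7. With the libraries compared alone 92 were, and without MHCC97H 153. Leaving out a line leaves 3 residual degrees of freedom, and without the line term the differences between lines enter the spread. Other causes were not tested. Purine members alone had a median of -0.81 in MHCC97H with AZD8055 and -1.06 in Hep3B with the combination.

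Directions turned for uncalled estimates only. With 1 line left out, IMPDH2 ranged from -0.39 to 0.098 with AZD8055 (0.098 without MHCC97H) and from -0.24 to 0.37 with the combination (-0.24 without Huh7). Against compound #57, ATIC ranged from -0.13 to 0.041 and CAD from -0.29 to 0.018. Against the sum of both drugs, PPAT ranged from -0.30 to 0.075, GART from -0.0096 to 0.19, PFAS from -0.12 to 0.068 and CAD from -0.14 to 0.16. With centred libraries, PFAS stood at 0.0026 and CAD at 0.016 there. Centring also changed the split of all genes called higher and lower with the combination from 2410 and 1744 to 1993 and 2229, and with AZD8055 from 255 and 87 to 256 and 217.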
